A study of Mus musculus with 15 samples.

Results

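Notch pathway genes were followed through bone marrow-derived macrophages (BMDMs) given RANKL, the cytokine that drives osteoclast formation, or lipopolysaccharide (LPS), a bacterial wall component that activates macrophages. The members were taken by symbol from the table of the series and are *Notch1* and *Notch2* (receptors), *Jag1*, *Dll1* and *Dll4* (ligands), *Rbpj* and *Maml1* (nuclear factors) and *Hes1*, *Hey1* and *Nrarp* (target genes), 10 of the 20089 genes analysed. All 10 had an entry, 9 were tested, and *Nrarp* stayed below the filter of a mean of 0.1 FPKM (fragments scaled for transcript length and for the fragments of the sample). The cells came from wild-type C57BL/6 mice, which the study's methods on BMDMs give as 4 to 8 weeks old, and were first grown with M-CSF, the macrophage growth factor. Each of 5 groups had 3 samples: control cells with M-CSF alone, RANKL for 4 h, RANKL for 3 days (RANKL 3 d), LPS for 4 h and LPS for 3 days (LPS 3 d), with 100 ng/mL given in the methods for both stimuli. The methods write the long stimulation as 72 h, and no label says which mice or cultures a sample came from, so that p-values measure the spread between these samples. The labels give no culture time for the control cells, and 1 control group serves both times. In comparisons with control, and between 4 h and 3 days, stimulus and time in culture therefore cannot be told apart.

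In Notch signalling a ligand on one cell binds a receptor on its neighbour, and the receptor is then cut by a metalloprotease and by gamma-secretase. The freed inner part enters the nucleus, joins the DNA-binding factor RBPJ and a Mastermind coactivator such as MAML1, and turns on target genes, among them *Hes1*, *Hey1* and *Nrarp*. Without that inner part RBPJ binds corepressors, and in macrophages and osteoclast precursors Notch ligands and receptors are known to respond to inflammatory signals.

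The upstream sequences of 3 members are shown because they differ in the letters they hold: *Rbpj* carries the core letters of its own protein's binding site, *Nrarp* the E-box letters that repressors of the Hey class bind, and *Dll1*, which changed most, carries neither. RefSeq promoter windows on GRCm38.p6 were matched for 8 of the 10 members, in 10 windows, and not for *Hes1* or *Hey1*. Each run below is the 250 bases before a start, 5′ to 3′ on the gene's strand, with matches in capitals. *Rbpj* lies on the plus strand (chr5:53590096-53590345), *Nrarp* on the plus strand (chr2:25180508-25180757) and *Dll1* on the minus strand (chr17:15376933-15377182).
Rbpj: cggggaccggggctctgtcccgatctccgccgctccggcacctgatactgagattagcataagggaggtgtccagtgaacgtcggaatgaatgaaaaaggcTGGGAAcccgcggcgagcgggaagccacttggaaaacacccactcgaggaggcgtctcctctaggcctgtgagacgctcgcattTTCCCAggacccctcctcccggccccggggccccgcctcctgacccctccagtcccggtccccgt
Nrarp: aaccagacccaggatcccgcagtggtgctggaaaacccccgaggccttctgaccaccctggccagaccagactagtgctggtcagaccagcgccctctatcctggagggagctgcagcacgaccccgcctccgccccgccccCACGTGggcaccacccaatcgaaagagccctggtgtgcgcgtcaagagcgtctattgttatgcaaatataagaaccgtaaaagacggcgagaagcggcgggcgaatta
Dll1: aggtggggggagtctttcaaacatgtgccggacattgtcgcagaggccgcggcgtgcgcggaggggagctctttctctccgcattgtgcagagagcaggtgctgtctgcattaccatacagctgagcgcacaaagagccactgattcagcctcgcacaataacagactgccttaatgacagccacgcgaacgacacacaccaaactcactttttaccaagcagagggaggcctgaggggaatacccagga
The letters TGGGAA were searched on both strands and were found in 21.6% of the 32851 windows of all genes. Among the members they were found only at *Rbpj*, at -149 on the sense strand and -65 on the other strand from the first start, the latter being the same bases as a match at -205 from its second start. Positions are those of the first base of a match, counted back from the start. The E-box letters CACGTG, which read the same on both strands, were found in 6.02% of all windows and, among the members, once, at -108 in the *Nrarp* window. A match says only that these letters occur there.

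In the GENCODE annotation (GRCm38) *Notch1* spans chr2:26457903-26516663, *Notch2* chr3:98013527-98150361, *Jag1* chr2:137081456-137116644, *Dll1* chr17:15367354-15376872 and *Dll4* chr2:119325784-119335962. *Rbpj* spans chr5:53466152-53657362, *Maml1* chr11:50255634-50292311, *Hes1* chr16:30064384-30067796, *Hey1* chr3:8663359-8667256 and *Nrarp* chr2:25180758-25183339. *Jag1*, *Hes1* and *Hey1* overlap no other annotated gene, and none of the genes that overlap the other 7 is in the table. Whether counting used strand is not given in the sources used here, so reads of opposite-strand neighbours of *Notch1*, *Dll1*, *Dll4*, *Rbpj*, *Maml1* and *Nrarp* cannot be told apart from their own.

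The samples held 18306184 to 20330207 fragments on listed genes. The 8 macrophage markers summed to 5426 FPKM or more in every sample, the 10 osteoclast markers to 1721 to 5474 FPKM in RANKL 3 d against 155 to 280 in control, and the 10 LPS response genes to 14375 to 16633 FPKM in LPS 4 h against 181 to 980 in control. LPS 3 d replicate 3 stood apart from its group: the squared differences of its fragments from the other 2 were 31.5 and 46.3 times the counting variance in the median gene, against 7.74 between those 2. The 18 stromal markers summed to 506 to 2339 FPKM in RANKL 3 d and to 186 to 381 in control, and in every group but LPS 3 d replicate 1 had the highest sum. The 8 granulocyte markers summed to 4759 to 14197 FPKM in control, to 999 to 4150 in RANKL 3 d and to 119 to 1115 in LPS 3 d. These are bulk samples, so fewer cells of a type and less RNA per cell cannot be told apart.

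The members covered a wide range of levels. *Rbpj* (mean 34.5 FPKM over the 15 samples), *Notch2* (25.8) and *Notch1* (16.3) were the highest, and *Maml1* (7.01) and *Jag1* (5.96) stood between. *Hey1* (1.10), *Hes1* (0.804), *Dll1* (0.705) and *Dll4* (0.297) were low, and *Nrarp* (0.0688) rested on 1 to 10 fragments per sample. *Dll1* and *Dll4* passed the filter only through the groups where they were high: outside LPS 4 h *Dll1* had a mean of 0.0975 FPKM, and outside LPS 4 h and RANKL 3 d *Dll4* had a mean of 0.0768. FPKM are scaled by transcript length, but the length behind the *Jag1* values, read from the worth of 1 fragment, was 11714 bases against 5612 for the transcript named in the table, so its place in this order depends on the length used.

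**Figure D1:**
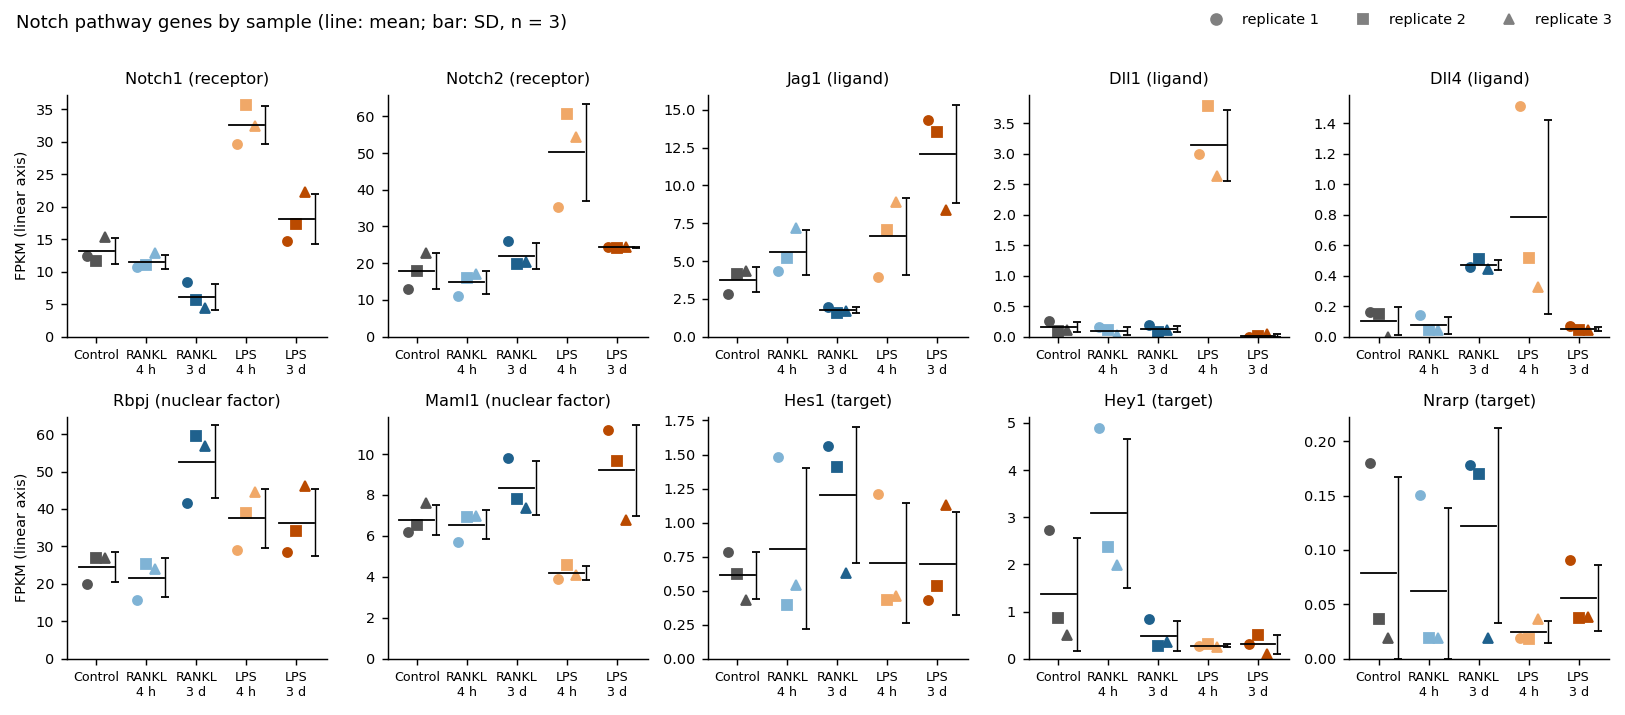
FPKM (linear axis from 0) of each of the 10 Notch pathway genes in the 15 samples, by group; symbols mark the replicate number, lines the mean and bars the SD (n = 3, cut at 0). *Dll1* in LPS 4 h (2.63 to 3.78 FPKM) stands above all other samples, *Notch1* and *Jag1* are lowest in RANKL 3 d, *Rbpj* has its highest mean in RANKL 3 d, and replicate 1 is the highest for *Hes1* in every group but LPS 3 d.

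Among the receptors, both were higher in LPS 4 h, and in RANKL 3 d only *Notch1* was lower. *Notch1* stood at 12.4, 11.6 and 15.4 FPKM in control replicates 1, 2 and 3, at 10.7, 11 and 12.8 in RANKL 4 h and at 8.37, 5.60 and 4.37 in RANKL 3 d. It stood at 29.7, 35.7 and 32.4 FPKM in LPS 4 h and at 14.7, 17.3 and 22.2 in LPS 3 d. All 3 LPS 4 h samples were above, and all 3 RANKL 3 d samples below, every sample of the other groups, while RANKL 4 h and LPS 3 d overlapped control. On the log2(FPKM + 0.1) scale *Notch1* was 1.31 ± 0.21 (SE) higher in LPS 4 h (limma adjusted p = 1.4e-04) and 1.13 ± 0.21 lower in RANKL 3 d, a log2 fold change of -1.13 (limma adjusted p = 0.00151). Of the 8 granulocyte markers 5 also fell in RANKL 3 d, against 9.04% of all tested genes, with a median log2 fold change of -3.64. In LPS 3 d 8 of 8 fell, against 16.1%, with a median of -7.49, while *Notch1* was at 0.45 ± 0.21 there and did not pass. Their mean level had r = 0.17 with *Notch1* over the 15 samples, and r = 0.62 once group means were removed. The stromal markers had r = 0.57 with group means removed. The part of these cell types in the *Notch1* result was not tested. *Notch2* stood at 13.1, 17.8 and 22.8 FPKM in control, at 11.2, 16.1 and 17.1 in RANKL 4 h and at 25.9, 19.7 and 20.2 in RANKL 3 d. It stood at 35.4, 60.6 and 54.5 FPKM in LPS 4 h and at 24.5, 24.1 and 24.3 in LPS 3 d. LPS 4 h was above every other sample and RANKL 3 d overlapped control. The log2 fold change in LPS 4 h was 1.48 ± 0.23 (SE; limma adjusted p = 1.0e-04). In LPS 3 d all 3 *Notch2* samples were above the 3 control samples, but the log2 fold change of 0.48 ± 0.23 (limma adjusted p = 0.122) did not pass the test.

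The 3 ligands each had their own pattern. *Jag1*, a ligand of the Jagged type, stood at 2.80, 4.15 and 4.31 FPKM in control, at 4.33, 5.21 and 7.20 in RANKL 4 h and at 1.97, 1.59 and 1.68 in RANKL 3 d. It stood at 3.91, 7.07 and 8.90 FPKM in LPS 4 h and at 14.3, 13.5 and 8.37 in LPS 3 d. Every RANKL 3 d sample was below every other sample and every LPS 3 d sample above every control sample, while LPS 4 h overlapped control through its replicate 1. All RANKL 4 h samples were also above every control sample, by 1.25 to 1.67 times within a replicate number, but the log2 fold change of 0.55 ± 0.30 (SE) did not pass the test. It passed on unadjusted p without RANKL 4 h replicate 1 (0.72) or with the mean level of the stromal markers as a covariate (0.60), a setting chosen after seeing the data. *Jag1* fell in RANKL 3 d (log2 fold change -1.04 ± 0.30, SE; limma adjusted p = 0.0178) and rose in LPS 3 d (1.65 ± 0.30; limma adjusted p = 0.000914). Without LPS 3 d replicate 3, the sample that stood apart, the LPS 3 d value was 1.89. The rise in LPS 4 h was smaller (0.75 ± 0.30; limma adjusted p = 0.0427) and was lost without control replicate 1 (0.56), LPS 4 h replicate 2 (0.67) or LPS 4 h replicate 3 (0.50).

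*Dll1*, a ligand of the Delta type, was near the limit of detection in 4 of the groups. It stood at 0.253, 0.0970 and 0.116 FPKM in control, at 0.150, 0.101 and 0.0255 in RANKL 4 h and at 0.185, 0.0756 and 0.115 in RANKL 3 d. It stood at 3.00, 3.78 and 2.63 FPKM in LPS 4 h and at 0, 0.0125 and 0.0388 in LPS 3 d. The LPS 4 h samples were far above all the others, and the LPS 3 d samples were below all control samples. The log2 fold change in LPS 4 h was 3.70 ± 0.32 (SE), given with no p because only these samples brought *Dll1* over the filter, with 768 fragments over the 3 samples against 38 in control, a ratio per fragment sequenced of 20.1 (95% exact interval 14.5 to 28.6, counting error only). The log2 value ran from 1.83 with a pseudocount of 1 to 4.37 with limma voom on the fragments. In LPS 3 d only 4 fragments were left, so that control was 9.36 times higher (95% exact interval 3.37 to 36.1). The fitted log2 fold change was -1.09 ± 0.32, also given with no p because *Dll1* was tested only through its LPS 4 h level. It depends on the pseudocount: it was -0.18, no longer past the threshold, with a pseudocount of 1. Without replicate 1 of every group, a setting chosen after seeing the data, it was -0.72 and also not past the threshold. Without LPS 3 d replicate 3 it was -1.22, which for the same reason is a description only.

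*Dll4*, the Delta ligand best known from sprouting blood vessels, stood at 0.162, 0.150 and 0 FPKM in control, at 0.140, 0.0423 and 0.0429 in RANKL 4 h and at 0.459, 0.509 and 0.445 in RANKL 3 d. It stood at 1.51, 0.513 and 0.328 FPKM in LPS 4 h and at 0.0680, 0.0422 and 0.0435 in LPS 3 d. RANKL 3 d and LPS 4 h were each above all control samples, and within LPS 4 h replicate 1 was far above the other 2. The log2 fold change was 1.61 ± 0.46 (SE) in RANKL 3 d and 2.01 ± 0.46 in LPS 4 h, both given with no p because only these groups brought *Dll4* over the filter. The value in RANKL 3 d rested on 98 fragments against 23 in control (ratio 4.44, 95% exact interval 2.80 to 7.33). It was 0.42 and not past the threshold with a pseudocount of 1.

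Stromal markers rose in RANKL 3 d, where *Jag1* fell and *Dll4* rose: 13 of the 18 listed rose there, against 20.2% of all tested genes, with a median log2 fold change of 1.52. With group means removed *Jag1* had r = -0.58 with the stromal, -0.62 with the B cell, -0.60 with the granulocyte and -0.53 with the endothelial markers. *Dll4* had r = 0.44, 0.50, 0.15 and 0.52 with the same lists. With the mean stromal level as a covariate *Jag1* in RANKL 3 d was at -0.57 and *Dll4* at 1.07, neither past the threshold, while *Notch1* and *Rbpj* passed. Because the stromal level was itself higher in RANKL 3 d, this fit cannot tell stromal level and stimulus apart. The part of these cell types in the results of the members was not tested.

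Of the nuclear factors, *Rbpj* rose most in RANKL 3 d and *Maml1* was lowest in LPS 4 h. *Rbpj* stood at 19.9, 26.8 and 27.0 FPKM in control, at 15.6, 25.2 and 24.0 in RANKL 4 h and at 41.5, 59.4 and 56.9 in RANKL 3 d. It stood at 29.0, 39.0 and 44.6 FPKM in LPS 4 h and at 28.6, 34.1 and 46.3 in LPS 3 d. RANKL 3 d, LPS 4 h and LPS 3 d were all above every control sample, and RANKL 4 h overlapped control. The log2 fold change in RANKL 3 d was 1.09 ± 0.23 (SE; limma adjusted p = 0.00362), and the ratio to the control of the same replicate number lay between 2.08 and 2.22. In LPS 4 h it was 0.60 ± 0.23 (limma adjusted p = 0.0386), just past the fold threshold, and it was lost without control replicate 1 (0.46), LPS 4 h replicate 2 (0.56) or LPS 4 h replicate 3 (0.47). In LPS 3 d the value was 0.55 ± 0.23 (limma adjusted p = 0.0824), under the fold threshold.

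*Maml1* stood at 6.19, 6.52 and 7.61 FPKM in control, at 5.72, 6.92 and 7.0 in RANKL 4 h and at 9.82, 7.80 and 7.35 in RANKL 3 d. It stood at 3.91, 4.58 and 4.07 FPKM in LPS 4 h and at 11.2, 9.68 and 6.78 in LPS 3 d. LPS 4 h was below every other sample, and LPS 3 d overlapped control through its replicate 3, without which *Maml1* passed the test there (0.62 against 0.41). *Maml1* fell in LPS 4 h by the test (log2 fold change -0.68 ± 0.18, SE; limma adjusted p = 0.00552). The median of all tested genes was itself at -0.52 in that comparison, and once samples were centred on the median gene *Maml1* was at -0.11 and no longer past the threshold.

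The 3 target genes did not move together. *Hey1*, a basic helix-loop-helix repressor, stood at 2.73, 0.873 and 0.496 FPKM in control, at 4.89, 2.37 and 1.98 in RANKL 4 h and at 0.846, 0.262 and 0.348 in RANKL 3 d. It stood at 0.262, 0.308 and 0.253 FPKM in LPS 4 h and at 0.311, 0.502 and 0.104 in LPS 3 d. Replicate 1 was the highest of its group in control and with RANKL, RANKL 4 h overlapped control, and LPS 4 h lay below all control samples. Compared with the control of the same number, RANKL 4 h was higher in 3 of 3, by 1.79 to 3.99 times. *Hey1* was the only member past the threshold in RANKL 4 h (log2 fold change 1.32 ± 0.56, SE), but its limma adjusted p was 0.897, and 0.387 with the replicate number as a block. That call was lost without control replicate 2 (1.18), control replicate 3 (0.83) or RANKL 4 h replicate 1 (0.94).

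*Hey1* fell with LPS at both times, with log2 fold changes of -1.66 ± 0.56 (SE; limma adjusted p = 0.0196) at 4 h and -1.68 ± 0.56 (limma adjusted p = 0.0310) at 3 days. Centred on the median gene the 4 h value was -1.09 and did not pass the test, and without control replicate 1 the values were -1.03 and -1.04 and neither passed. Without LPS 3 d replicate 3 the 3 d value was -1.25, also not past it. In RANKL 3 d *Hey1* was at -1.14 ± 0.56 (limma adjusted p = 0.134), which did not pass; it passed the threshold on unadjusted p with the replicate number as a block (limma adjusted p = 0.0511), after centring (-1.36), with the stromal covariate (-1.72), without control replicate 3 (-1.63) or without RANKL 3 d replicate 1 (-1.55). The 10 endothelial markers, genes of a cell type known to express *Hey1* and *Dll4*, summed to 10.1 to 20.5 FPKM in control, 10.7 to 19.3 in RANKL 4 h, 7.27 to 17.7 in LPS 4 h, 2.97 to 10.2 in RANKL 3 d and 2.50 to 5.80 in LPS 3 d. Of the 8 tested, 7 fell in LPS 3 d, against 16.1% of all tested genes, and 3 fell in RANKL 3 d, against 9.04%. In LPS 4 h 0 of 8 passed, against 49.8%. These counts use the same limma rule on p before adjustment. With the adjusted p also under 0.05 they were 3, 1 and 0. Their part in the *Hey1* result was not tested.

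*Hes1*, the other basic helix-loop-helix repressor, stood at 0.780, 0.624 and 0.433 FPKM in control, at 1.48, 0.394 and 0.542 in RANKL 4 h and at 1.57, 1.41 and 0.630 in RANKL 3 d. It stood at 1.21, 0.431 and 0.463 FPKM in LPS 4 h and at 0.434, 0.533 and 1.13 in LPS 3 d. Every group overlapped every other, and no comparison passed the test, the value in RANKL 3 d being 0.81 ± 0.49 (SE; limma adjusted p = 0.226). The highest *Hes1* sample of each group was also the one with the highest stromal sum, which was replicate 3 in LPS 3 d and replicate 1 elsewhere. Over the 15 samples *Hes1* and the mean stromal level, both on the log2 scale, had Pearson's r = 0.85, and r = 0.82 once group means were removed. With group means removed *Hes1* also had r = 0.73 with the granulocyte, 0.63 with the endothelial and 0.49 with the B cell markers. The samples share 5 groups and replicate numbers, and these values are a description.

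*Nrarp*, which encodes an inhibitor that Notch signalling switches on against itself, had 13 fragments over the 3 control samples, 10 in RANKL 4 h, 19 in RANKL 3 d, 4 in LPS 4 h and 9 in LPS 3 d. Its samples lay between 0.0180 and 0.180 FPKM, with replicate 1 at 0.180 in control, 0.150 in RANKL 4 h and 0.178 in RANKL 3 d. RANKL 3 d replicate 2 was also high, at 0.170 FPKM. All LPS 4 h samples were below all LPS 3 d samples, but LPS 4 h replicate 3 and LPS 3 d replicates 2 and 3 each held 2 fragments. Their values of 0.0365, 0.0376 and 0.0388 FPKM differ only through the depth of the samples. Every other pair of groups next to each other in the order of the means overlapped. Without the filter on low values *Nrarp* passed the test in 0 of 8 comparisons, with limma adjusted p from 0.426 to 1 and none under 0.05 before adjustment. Per fragment sequenced LPS 4 h had 0.306 times the control fragments (95% exact interval 0.0726 to 0.99, counting error only), and a change was not detectable at this depth beyond the spread between samples.

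**Figure D2:**
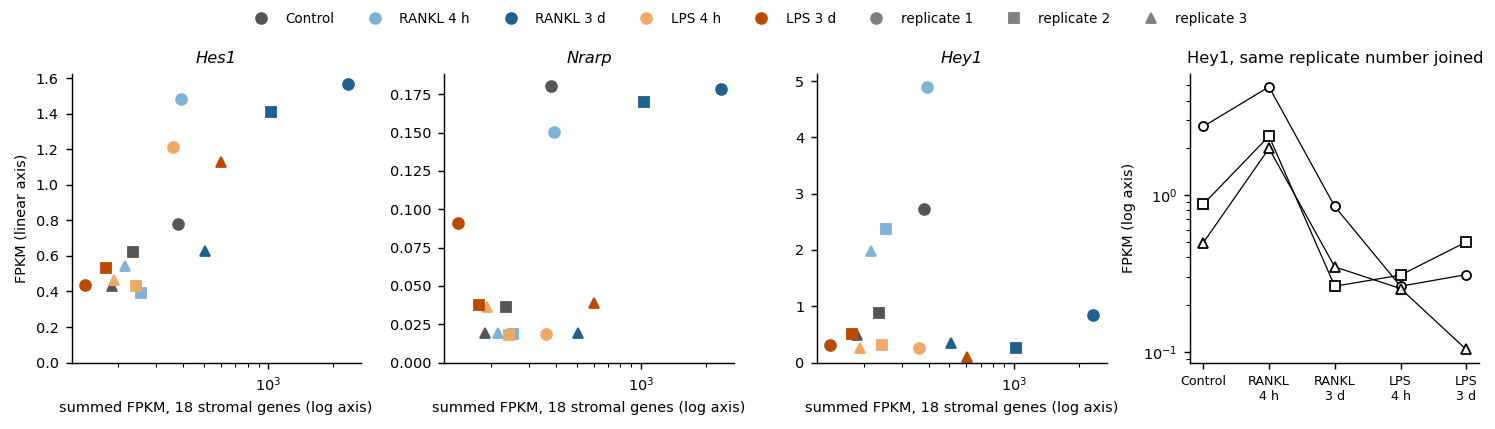
FPKM (linear axis) of *Hes1*, *Nrarp* and *Hey1* against the summed FPKM of 18 stromal markers (log axis) in the 15 samples, with groups as colours and replicate numbers as symbols, and at right *Hey1* (log axis) with samples of the same replicate number joined. *Hes1* is highest where the stromal sum is high within a group, and *Hey1* in RANKL 4 h is above control in 3 of 3 numbers and between 0.253 and 0.308 FPKM in LPS 4 h.

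Counts over the members leave out *Dll1* and *Dll4*, which had to differ once they had passed the filter. RANKL for 4 h changed 1 of the other 7 by the rule of the study, which asks for a fold above 1.5 or below 0.66 together with p under 0.05 before adjustment. Of all tested genes 2.56% passed it, 1.21% higher and 1.35% lower. With the adjusted p also under 0.05 it changed 0 of 7, against 0.119%. RANKL for 3 days changed 3 of 7 (29.2% of all), 1 up against 20.2% and 2 down against 9.04%. LPS for 4 h changed 6 of 7 (49.8% of all), 4 up against 8.75% of all genes and 2 down against 41%. After centring on the median gene the split was 4 up and 0 down, against 17.4% and 14.3%. LPS for 3 days changed 2 of 7 (31% of all), 1 up against 14.9% and 1 down against 16.1%. The median log2 fold change of the 7 was 0.60 in LPS 4 h, where that of all tested genes was -0.52. It was 0.29 in RANKL 3 d beside 0.16, 0.45 in LPS 3 d beside 0.08 and -0.049 in RANKL 4 h beside 0.00. All 4 comparisons share the control samples.

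**Figure D3:**
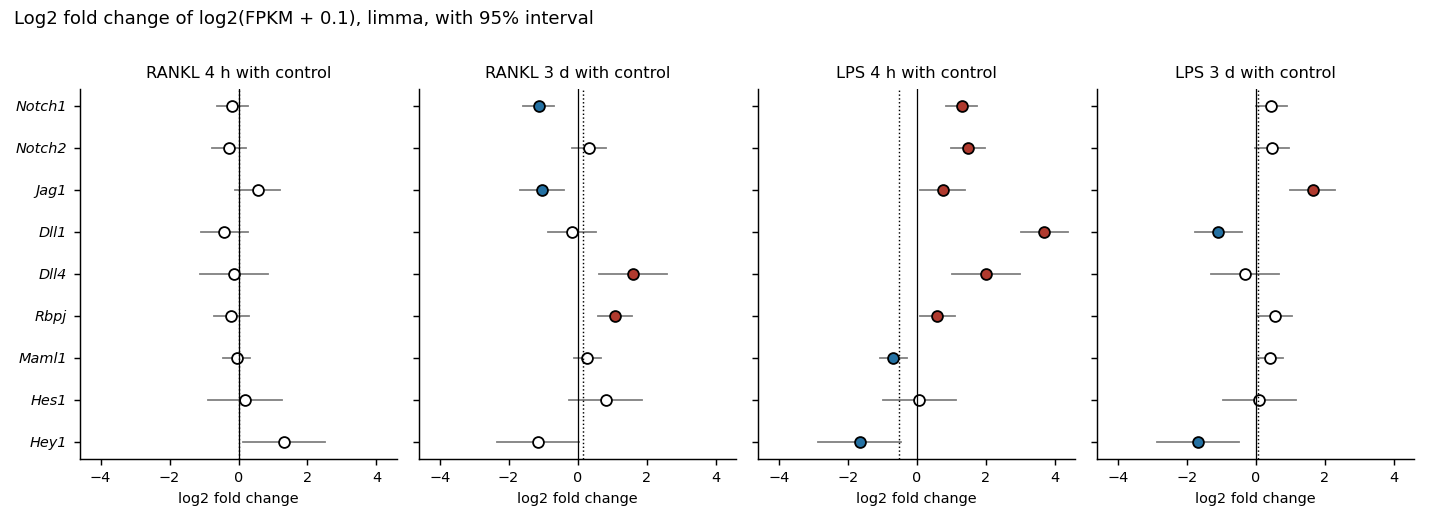
Log2 fold change of log2(FPKM + 0.1) with its 95% interval for the 9 tested members in the 4 comparisons with control; filled points are called with an adjusted p under 0.05 (red higher, blue lower) and the dotted line is the median of all tested genes. Besides *Dll1* and *Dll4*, 4 filled points lie to the right in LPS 4 h and 2 to the left. By the same rule 990 of the 11743 tested genes were higher there and 4660 lower. The fill of *Dll1* and *Dll4* is no test result, because they passed the filter only through the groups where they were high. In RANKL 4 h no point is filled.

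Set against each other at 4 h, RANKL and LPS differed at 5 of the 7 members other than *Dll1* and *Dll4* (51.8% of all tested genes), 2 higher with RANKL (42.5%) and 3 lower (9.31%). With RANKL, *Notch1* was at -1.50 ± 0.21 (SE) relative to LPS, *Notch2* at -1.74 ± 0.23, *Dll1* at -4.12 ± 0.32, *Dll4* at -2.14 ± 0.46 and *Rbpj* at -0.80 ± 0.23. *Hey1* was the opposite, at 2.98 ± 0.56 (limma adjusted p = 0.000433), and its samples did not overlap: the lowest RANKL 4 h sample was at 1.98 FPKM and the highest LPS 4 h sample at 0.308. *Maml1* was at 0.63 ± 0.18 and, after centring, at 0.063, no longer past the threshold. After centring 1 of the 7 was higher with RANKL, against 14.7% of all tested genes, and 4 were lower, against 17.6%, with *Jag1* (-0.76) added. Without centring *Jag1* did not pass the test, with a difference of -0.20 and a 95% interval from -0.84 to 0.44, and neither did *Hes1* (0.12, interval -0.94 to 1.18).

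At 3 days 2 of the same 7 members differed between the stimuli (38.9% of all). *Jag1* was lower with RANKL (log2 difference -2.69 ± 0.30, SE; limma adjusted p = 1.0e-05), and so was *Notch1* (-1.58 ± 0.21; limma adjusted p = 4.6e-05). With RANKL *Dll1* was at 0.93 ± 0.32, where it had 29 fragments against 4, and *Dll4* was at 1.92 ± 0.46, both given with no p because of the filter. With a pseudocount of 1 the *Dll4* value was 0.48 and the *Dll1* value 0.14, and neither was past the threshold. The *Dll1* value was also not past it without RANKL 3 d replicate 1 (0.74) or with the stromal covariate (0.45). *Notch2* did not pass the test, with a difference of -0.16 and a 95% interval from -0.65 to 0.33. *Rbpj* gave 0.54 (interval 0.04 to 1.04), under the fold threshold, and passed it without LPS 3 d replicate 3 (0.73).

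Between the 2 times of one stimulus, 4 of the 7 differed for RANKL (28.3% of all) and 4 of 7 for LPS (59.3% of all), 2 higher at 3 days (45%) and 2 lower (14.3%). From 4 h to 3 days of RANKL, *Hey1* was lower (log2 difference -2.46 ± 0.56, SE), as were *Jag1* (-1.59 ± 0.30) and *Notch1* (-0.95 ± 0.21), while *Rbpj* (1.29 ± 0.23) was higher and *Dll4* was at 1.75 ± 0.46. From 4 h to 3 days of LPS, *Dll1* was lower (-4.79 ± 0.32), by 188 times per fragment sequenced (95% exact interval 73.1 to 692). *Dll4* (-2.32 ± 0.46), *Notch2* (-1.0 ± 0.23) and *Notch1* (-0.86 ± 0.21) were also lower, and *Maml1* (1.09 ± 0.18) and *Jag1* (0.90 ± 0.30) higher. *Jag1* and *Maml1* did not pass after centring (0.25 and 0.44), which left 0 of the 7 higher, against 19.5% of all tested genes, and 3 lower, against 28.6%, with *Rbpj* (-0.70) added. The median of all tested genes was at 0.52 between these times.

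The order of the group means brings these patterns side by side. *Notch1* and *Notch2* both had LPS 4 h first (32.6 ± 3.0 and 50.1 ± 13.1 FPKM, SD, n = 3) and LPS 3 d second (18.1 ± 3.8 and 24.3 ± 0.185). They parted at the lower end, where *Notch1* had RANKL 3 d (6.11 ± 2.05) and *Notch2* had RANKL 4 h (14.8 ± 3.2), which overlapped control (17.9 ± 4.9). *Jag1* ran from LPS 3 d (12.1 ± 3.2) and LPS 4 h (6.63 ± 2.52), which overlap, to RANKL 3 d (1.75 ± 0.20). *Rbpj* was headed by RANKL 3 d (52.6 ± 9.7), which overlapped LPS 4 h (37.5 ± 7.9). *Hey1* was headed by RANKL 4 h (3.08 ± 1.58), which overlapped control (1.37 ± 1.2). Among the 45 pairs of members, *Dll1* and *Maml1* had the lowest Pearson correlation over the 15 samples (r = -0.85), followed by *Rbpj* and *Hey1* (r = -0.80), and *Notch2* and *Dll1* the highest (r = 0.73). These correlations are across samples that share 5 groups and are descriptions.

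The other genes of the pathway, a list of 62 of which 51 passed the filter, split in LPS 4 h into 7 that rose and 17 that fell (12 and 9 after centring on the median gene), with a median log2 fold change of -0.49 beside -0.52 for all tested genes. RANKL 4 h changed 3 of 51 (0 with an adjusted p under 0.05), RANKL 3 d 16 of 51 with 13 up and 3 down (11 and 5 after centring), and LPS 3 d 14 of 51 with 9 up and 5 down (6 and 7 after centring). These shares stand beside 2.56%, 29.2% and 31% of all tested genes, and 24 of 51 in LPS 4 h beside 49.8%.

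Among genes that ripen the receptor, *Lfng*, a Fringe glycosyltransferase that alters which ligands a Notch receptor answers to, went from 39.8 ± 4.1 FPKM (SD, n = 3) in control to 6.41 ± 2.17 in LPS 4 h (log2 fold change -2.66 ± 0.25, SE; limma adjusted p = 1.2e-06) and 17.7 ± 2.9 in LPS 3 d. The other two Fringe genes, named after their values were seen, were also lower in LPS 4 h, *Mfng* at -1.56 ± 0.28 and *Rfng* at -1.19 ± 0.13. *Furin*, the protease that makes the first cut in the receptor, rose in LPS 4 h (1.77 ± 0.16; limma adjusted p = 1.0e-06), from 20.5 ± 3.8 to 69.7 ± 7.7 FPKM, and also in RANKL 3 d (0.87 ± 0.16).

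Of the cleavage genes, *Aph1c*, which encodes a form of the APH1 subunit of gamma-secretase, fell in LPS 4 h (log2 fold change -2.03 ± 0.23, SE; limma adjusted p = 7.5e-06) and in RANKL 3 d (-1.11 ± 0.23). Its paralog *Aph1b* rose in RANKL 3 d (1.45 ± 0.32; limma adjusted p = 0.00474). The 2 are near copies, and how the counting split shared reads is not given in the sources used here. Of the ubiquitin ligases of the Deltex family, *Dtx2* rose in LPS 4 h (1.85 ± 0.19) and LPS 3 d (1.80 ± 0.19), and *Dtx4* rose in LPS 3 d (1.64 ± 0.33; limma adjusted p = 0.00182).

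In the nucleus, the coactivator *Kat2a*, a histone acetyltransferase, fell in LPS 4 h (log2 fold change -1.63 ± 0.13, SE; limma adjusted p = 2.7e-07), while *Maml2*, a Mastermind paralog of *Maml1*, rose (0.91 ± 0.31; limma adjusted p = 0.0208) from 2.01 ± 0.31 to 4.13 ± 1.73 FPKM. Of the corepressors, *Tle3*, a Groucho relative, rose (1.42 ± 0.15), from 14.0 ± 1.2 to 37.8 ± 4.7 FPKM. *Hes6*, the only one of 8 listed relatives of *Hes1* and *Hey1* that passed the filter, fell in LPS 4 h (-1.77 ± 0.17; limma adjusted p = 1.6e-06). The remaining receptors, *Notch3* and *Notch4*, named after their values were seen, rose in RANKL 3 d (1.46 ± 0.35 and 2.04 ± 0.32) to means of 0.646 ± 0.266 and 1.12 ± 0.51 FPKM, in the group where the stromal sums were highest.

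**Figure D4:**
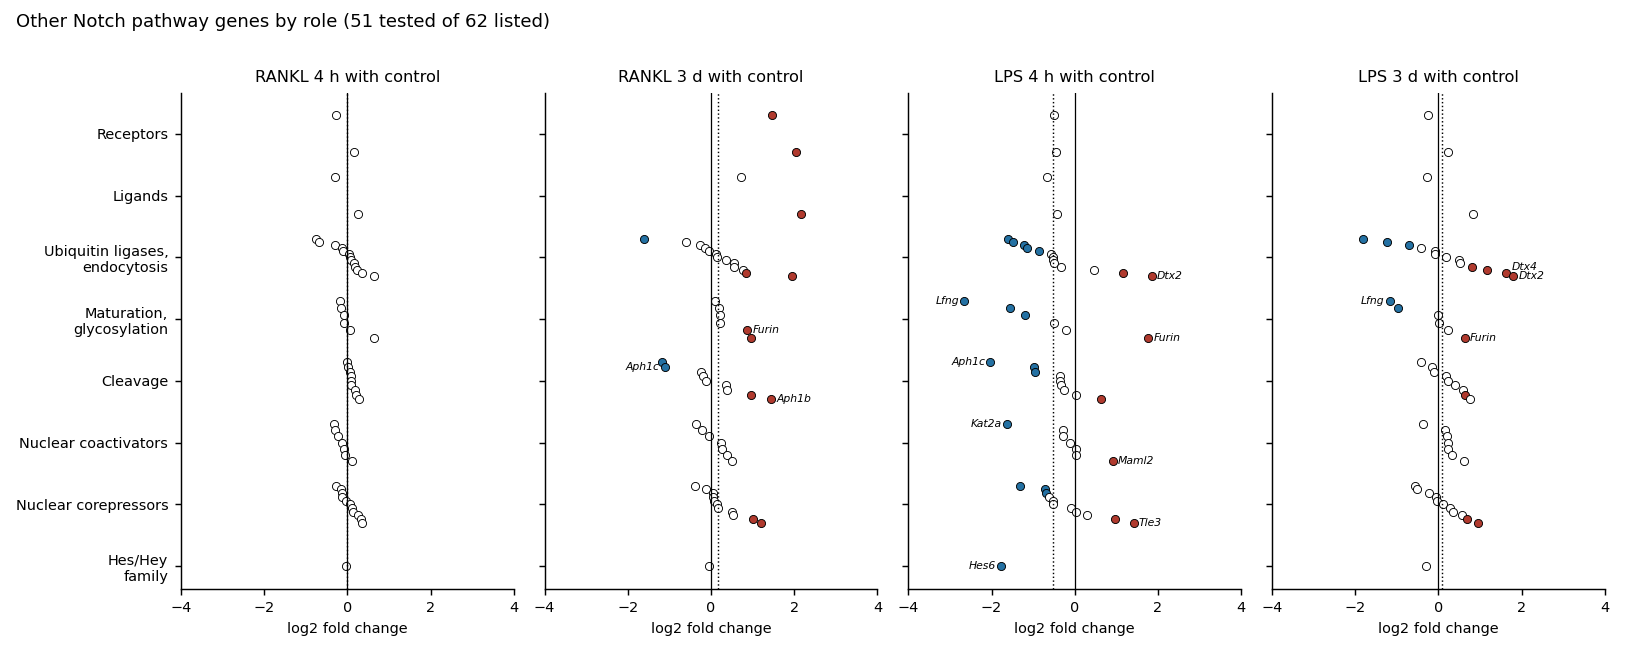
Log2 fold change of the 51 tested of the 62 other Notch pathway genes, by role, in the 4 comparisons with control; filled points are called with an adjusted p under 0.05 (red higher, blue lower), the dotted line is the median of all tested genes and genes named by rule in the text are labelled where called. In LPS 4 h *Lfng* lies farthest to the left, at -2.66, and *Dtx2* farthest to the right, at 1.85.

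The genes whose values ran most like each member were found among 9485 genes whose mean reached 1 FPKM, by Pearson's r of log2(FPKM + 0.1) over the 15 samples. For *Notch1* they were *Spic* (r = 0.94), *Slamf7* (0.93) and *Cebpb* (0.93), and for *Notch2* *Alpk1* (0.98), *Fam102b* (0.97) and *Ptprj* (0.97). For *Jag1* they were *Nrg4* (0.96), *Dnmt3l* (0.94) and *Slc23a2* (0.94), and for *Rbpj* *Tanc1* (0.93), *Slc4a7* (0.93) and *Nrp2* (0.92). For *Maml1* they were *Edrf1* (0.98), *Rnf170* (0.97) and *Rabgap1* (0.97). *Hey1* had no such close partner, the nearest being *Ewsr1* (0.87), *Mrpl27* (0.86) and *Tcf7l2* (0.85).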

How the data were processed

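RNA from 15 BMDM samples was sequenced by the authors after a SMARTER mRNA library kit, per the labels. The authors deposited FPKM values per gene and sample, and the labels name StringTie and the builds GRCm38.p4 and mm10; the methods describe StringTie with Ballgown and a count-based test. The aligner is not given in the sources used here. The table ends before the end of the alphabet, and genes beyond its last complete entry were not analysed here.

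Fragments behind each FPKM were recovered from the step size of each gene and sample (14485 genes, 100% of values above 0 within 0.01 of a whole number). Values were tested with limma 3.58.1 (R 4.3.3) on log2(FPKM + 0.1), in 1 fit of all 15 samples with 8 contrasts. The 11743 genes whose mean reached 0.1 FPKM entered. The study's thresholds were kept: a fold above 1.5 or below 0.66, and p under 0.05 before adjustment. Benjamini-Hochberg adjusted p-values cover all of these genes. A fold on this scale understates the change of low genes. Intervals and ratios of fragments cover counting error only, since amplified fragments are not independent molecules. Steps were tested on simulated data first. Python 3.11.15 was used for the rest.

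The members and gene lists were chosen with earlier results of these data known. All 10 members are named; of the other pathway genes, the 2 per role with the largest absolute log2 fold change among those with an adjusted p under 0.05 in a comparison with control and a mean of at least 1 FPKM, and for likeness the 3 genes with the highest correlation. A gene that this rule picks is not reported here. Samples of the same replicate number deviated together (every correlation above 0.1 over 9486 genes) between control and RANKL 4 h (mean r = 0.76), RANKL 3 d (0.21) and LPS 4 h (0.56), and not with LPS 3 d (0.08 with control). In RANKL 3 d the match was weak: only 2 of 3 control samples went best with their own number. Control replicate 2 had r = 0.26 with RANKL 3 d replicate 3 and 0.14 with replicate 2. The labels do not say what a number marks. All replicate pairs differed by more than counting noise.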

Additional observations from a re-analysis of the deposited data

Results flagged for a closer look

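Some members differed between the 2 times of one stimulus, as tested by the contrast of the times in limma. *Dll1* and *Dll4* passed the filter only through the groups where they were high, and their values are descriptions. For RANKL at 3 days against 4 h the log2 differences were -0.95 for *Notch1*, -1.59 for *Jag1*, 1.75 for *Dll4*, 1.29 for *Rbpj* and -2.46 for *Hey1*. For LPS they were -0.86 for *Notch1*, -1.0 for *Notch2*, 0.90 for *Jag1*, -4.79 for *Dll1*, -2.32 for *Dll4* and 1.09 for *Maml1*. For *Hey1* the sign against control turned, from 1.32 at 4 h of RANKL to -1.14 at 3 days, although neither value had an adjusted p under 0.05 (limma, 0.897 and 0.134). Groups of 3 samples were too small for the test of single outlying samples.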

How the results depend on the processing

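None of the 38 member differences past the threshold changed sign under any alternative that gave it a value, and all 42 reversals fell on differences that had not passed. Those of *Dll1* and *Dll4* are among the 38, and as these genes had to differ once past the filter, their steady signs are no support. Counts here are over all 9 tested members, *Dll1* and *Dll4* included, and few moved by over 1.5 times. No share of all tested genes was computed for fits that leave out samples, change the pseudocount or filter, or keep only 2 groups. None was computed with the stromal covariate or the replicate block either. The 1 member called in RANKL 4 h became 0 with only the 2 groups in the fit, 0 with an adjusted p under 0.05 and 2 with the stromal covariate. The 4 members that differed between RANKL 3 d and LPS 3 d became 2 with a pseudocount of 1 and 2 with a mean of at least 1 FPKM. In both settings the 2 lost were *Dll1* and *Dll4*, which the higher filter leaves untested (means of 0.705 and 0.297 FPKM), and *Notch1* and *Jag1* stayed. Of the other pathway genes, the 3 in RANKL 4 h became 0 with an adjusted p under 0.05. The 16 in RANKL 3 d became 9 with a mean of at least 1 FPKM, a setting that leaves genes under that mean untested. Leaving out 1 sample at a time gave 0 to 1 members in RANKL 4 h (0 without control replicate 2 or 3), 4 to 5 in RANKL 3 d, 5 to 8 in LPS 4 h (5 without control replicate 1), 2 to 5 in LPS 3 d (5 without control replicate 3 or LPS 3 d replicate 1), and 0 to 4 of the other genes in RANKL 4 h (0 without RANKL 4 h replicate 3). With a block for the replicate number, counts against control were 1, 5, 8 and 3, the fifth in RANKL 3 d being *Hey1* (-1.14), and this pairing changed no other call of a member. Centring on the median gene gave 1488 rises and 1668 falls over all genes in RANKL 3 d in place of 2369 and 1062, and 2049 and 1675 in LPS 4 h in place of 1028 and 4818. *Hes1* reversed most: without replicate 1 of every group it was at -0.14 in RANKL 4 h and -0.18 in LPS 4 h; with the stromal covariate at -0.32 in RANKL 3 d, -0.033 in LPS 4 h, -0.34 in RANKL 3 d against LPS 3 d and -0.39 against RANKL 4 h; and after centring at -0.45 in RANKL 4 h against LPS 4 h and -0.62 in LPS 3 d against LPS 4 h. *Dll4* in RANKL 4 h was at 0.20 with a pseudocount of 0.01 and 0.28 with limma voom. *Notch2* in RANKL 3 d was at -0.014 without replicate 1 of every group. With the stromal covariate *Notch2* (0.017) and *Hey1* (-0.0027) turned in RANKL 3 d against LPS 3 d and *Dll1* (-0.20) in RANKL 3 d against RANKL 4 h. *Hey1* in LPS 3 d against LPS 4 h was at 0.023 with a pseudocount of 1 and 0.023 after rescaling to equal sums. Leaving out 1 sample turned these around: against control in RANKL 4 h, *Dll4* (-0.59 to 0.10), *Rbpj* (-0.35 to 0.013), *Maml1* (-0.11 to 0.044) and *Hes1* (-0.31 to 0.53); *Dll1* in RANKL 3 d (-0.34 to 0.10); *Hes1* in LPS 4 h (-0.35 to 0.30) and LPS 3 d (-0.26 to 0.34); between stimuli, *Jag1* (-0.53 to 0.052) and *Hes1* (-0.38 to 0.54) at 4 h and *Maml1* (-0.33 to 0.027) at 3 days; and between times, *Dll1* with RANKL (-0.021 to 0.48) and *Rbpj* (-0.24 to 0.10), *Hes1* (-0.33 to 0.45) and *Hey1* (-0.37 to 0.41) with LPS. The cause was not tested. Depth limits *Dll1*, *Dll4* and *Nrarp*, which had 8 to 21, 0 to 12 and 1 to 10 fragments per control sample.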
